A study of Mus musculus with 4 samples.

Results

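The small leucine-rich proteoglycans are secreted matrix proteins built around a run of leucine-rich repeats, most of which carry sugar chains. The family was followed here as 10 genes chosen by name, out of 32285 genes in the deposited matrices: *Dcn*, *Bgn* and *Aspn* of class I, *Fmod*, *Lum*, *Prelp*, *Kera* and *Omd* of class II, and *Ogn* and *Epyc* of class III. Their unique molecular identifiers (UMIs, 1 per captured transcript) were counted in single cells of E18.5 fetal mouse leg muscle, in fetuses that carried *SYISL* (WT) and in littermates in which *SYISL*, a long non-coding RNA gene, was knocked out (KO). The fetuses came from matings of heterozygous mice, so every dam carried 1 knocked-out allele. Each genotype had 2 libraries (10x 3' v3), and the leg muscles of each fetus were taken on their own and digested with trypsin and DNase I. How many fetuses went into a library, their sex and their strain are not given in the sources used here, so p-values measure the spread between these libraries, which may be technical. The dissected material held tendon, cartilage and vessels beside muscle, as the cell classes below show.

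In connective tissue these proteins sit on collagen fibrils and set how fibrils grow and pack. Decorin and biglycan carry chondroitin or dermatan sulfate chains and also bind growth factors of the TGF-β family, while lumican, fibromodulin and keratocan carry keratan sulfate and bind the same fibrils at other places. Some members are best known from particular tissues, such as epiphycan from growth-plate cartilage, osteomodulin from bone and keratocan from cornea and tendon.

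The members lie in 3 groups of neighbours and 1 single locus (mouse build GRCm38, the mm10 build of the files, GENCODE M21 annotation). On chromosome 10, *Dcn* (97479609 to 97518143), *Lum* (97565128 to 97572703), *Kera* (97606879 to 97613692) and *Epyc* (97644068 to 97682454) follow each other on the plus strand within 202.846 kb. On chromosome 13, *Aspn* (49544443 to 49567565), *Omd* (49582462 to 49592822) and *Ogn* (49608046 to 49624501) lie on the plus strand within 80.059 kb, all inside the antisense gene *Cenpp*. *Aspn* shares 7 exon bases with *Cenpp*, and *Omd* and *Ogn* share 0. On chromosome 1, *Prelp* (133910304 to 133921414, minus strand) and *Fmod* (134037254 to 134048277, plus strand) are 115839 bases apart, and *Bgn* (73483602 to 73495933, plus strand) is on chromosome X. All 10 are protein-coding genes and were counted over the gene as annotated, without a split into exons, introns or UTRs in the deposited values.

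Promoter windows from RefSeq (GRCm38.p6), from 250 bases before to 50 bases after an annotated start, were held for 8 members, and not for *Dcn* and *Lum*. The windows of *Fmod* (chr1:134037004-134037303), *Kera* (chr10:97606955-97607254) and *Epyc* (chr10:97643818-97644117), all on the plus strand, are shown because the levels of these members, given below, were highest in cartilage and tendon cells (*Fmod*), tendon cells (*Kera*) and cartilage cells (*Epyc*). RefSeq places the start of *Kera* downstream of the GENCODE start given above, and the first of 2 *Epyc* windows is shown. Capitals mark CANNTG, the E-box bound by basic helix-loop-helix factors such as *Scx*, and AACAAT or its reverse complement ATTGTT, a core bound by SOX factors, searched on both strands. The 2 motifs did not overlap each other in these windows.
Fmod: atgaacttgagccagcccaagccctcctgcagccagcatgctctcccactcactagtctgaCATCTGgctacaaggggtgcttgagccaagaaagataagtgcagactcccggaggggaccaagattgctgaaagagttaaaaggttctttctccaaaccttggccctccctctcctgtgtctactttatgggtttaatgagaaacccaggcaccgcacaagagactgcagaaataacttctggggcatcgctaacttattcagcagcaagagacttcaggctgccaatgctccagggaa
Kera: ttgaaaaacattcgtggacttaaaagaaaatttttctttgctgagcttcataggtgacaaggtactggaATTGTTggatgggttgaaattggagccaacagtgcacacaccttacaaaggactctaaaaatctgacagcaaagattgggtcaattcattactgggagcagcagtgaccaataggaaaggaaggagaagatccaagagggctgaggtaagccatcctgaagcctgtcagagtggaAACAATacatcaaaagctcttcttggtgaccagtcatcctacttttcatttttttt
Epyc: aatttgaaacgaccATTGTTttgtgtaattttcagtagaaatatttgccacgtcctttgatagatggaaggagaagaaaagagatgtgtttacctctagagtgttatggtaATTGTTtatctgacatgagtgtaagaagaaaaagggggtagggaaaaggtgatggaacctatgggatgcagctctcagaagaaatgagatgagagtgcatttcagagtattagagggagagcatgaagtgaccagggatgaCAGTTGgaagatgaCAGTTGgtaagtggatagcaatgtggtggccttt
The *Fmod* window held 1 CANNTG, at -189 from the start, and 0 AACAAT. The *Kera* window held 0 CANNTG and 2 AACAAT, at -181 and -6. The *Epyc* window held 2 CANNTG, at 3 and 17, and 2 AACAAT, at -236 and -139. CANNTG occurred in 72.3% and AACAAT in 10.7% of all 32851 promoter windows of the same length, and a match describes the letters only.

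Of 9528 to 11670 deposited cells per library, 8177 to 10461 were kept with the limits that the study states (1000 to 6000 genes, 1000 to 25000 UMIs, mitochondrial share below 8%). The libraries held 109653824 to 126257094 UMIs, and median UMIs per kept cell ran from 9118 to 11427, higher in both WT libraries. Any 2 libraries shared 21 to 41 cell barcodes. Cells were clustered without the members and the clusters named from marker lists without the members, which gave 16953 cells like fibro-adipogenic progenitors (FAPs), 4853 tenocyte-like, 1433 chondrocyte-like, 6727 myogenic-like, 1830 glial-like, 1342 endothelial-like, 1748 smooth muscle or pericyte-like, 286 mast-like, 1115 macrophage-like and 214 neutrophil-like cells, and 468 unnamed ones. In each library, 10 of 10 tenocyte markers, 11 of 11 chondrocyte markers and at least 9 of 10 FAP markers were higher in their own class than in the other cells. The same lists served to name the clusters, so this is no check of the names. At the 2-fold rule used for naming, the FAP-like clusters of 8732, 2656 and 5167 cells had 2, 0 and 6 of 10 FAP markers. A finer clustering gave 22 groups of 75 to 4418 cells, called here by their 2 leading genes. The finer groups cross the classes in part. Of the tenocyte-like cells, 46.4% lay in finer groups with the tenocyte name, 34.6% in the *Sv2c Igfbp2* and *Anxa8 Col22a1* groups, which the naming rule calls FAP-like, and 17.0% in the unnamed *Runx2 Tnn* group, and of the *Matn3 Cnmd* group 63.6% lay in the FAP-like class. KO replicate 1 stood apart in holding few cartilage and tendon cells, 0.978% chondrocyte-like against 3.26% to 6.09% in the other libraries and 7.62% tenocyte-like against 12.6% to 16.8%. Levels below are a gene's UMIs over all UMIs of the class, scaled to 1000000 (CPM), in the libraries WT 1, WT 2, KO 1 and KO 2. A UMI marks the 3' end of 1 transcript, so CPM is not scaled by gene length. Genes are set side by side on that basis, and whether they were captured equally was not tested.

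Because the classes were built from the same cells, levels across classes are a description over 4 libraries with no test. Decorin, the most abundant member with 577135 deposited UMIs, was highest in FAP-like cells, at 2429, 2310, 2582 and 2135 CPM (2364 ± 189, SD, n = 4). In tenocyte-like cells *Dcn* stood at 1764, 1608, 1492 and 1288 CPM (1538 ± 200) and in chondrocyte-like cells at 295, 174, 150 and 183 CPM. The 3 ranges did not overlap, and FAP-like cells were above the others in every library. Among finer groups *Dcn* reached 4166 ± 163 CPM in the *Wnt2 Ly6a* group, whose leading markers (8 of 9) are those of *Pi16 Ly6a* fibroblasts, a type known as a reserve of other fibroblasts. The next group, *Olfr1033 Ccl11*, was at 2668 ± 287 CPM, below it in each library, and the largest FAP-like group, *Coch Hpse2*, at 1617 ± 145 CPM. After every cell was thinned to 2000 UMIs, 92.1% ± 1.69 of FAP-like cells held a *Dcn* UMI (98.3% before thinning), against 7.57% of macrophage-like cells (20.1%) and 3.56% of myogenic-like cells (15.9%). Macrophages are not known to make decorin, so 7.57% is taken as the background share. That share includes cells called by Scrublet, which scores droplets that look like 2 cells, and lies above the share of myogenic-like cells. *Dcn* in macrophage-like cells averaged 108 CPM with the called cells and 28.4 CPM without them. Median depths were 9140.5 to 12126 UMIs in FAP-like and 10281 to 11856.5 in macrophage-like cells, and thinning left out 20 to 57 cells per library.

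Biglycan, the nearest relative of decorin, had another order. *Bgn* was 1039, 909, 879 and 891 CPM in chondrocyte-like cells (930 ± 74.2) and 966, 921, 908 and 903 CPM in tenocyte-like cells (924 ± 28.8), ranges that overlapped. FAP-like cells were lower in each library, at 422, 365, 351 and 357 CPM. The peak of *Bgn* was the *Chst5 Tnmd* group, at 1497 ± 83.3 CPM, followed without overlap by the *Runx2 Tnn* group at 1290 ± 82.2 CPM. The *Chst5 Tnmd* group carried 7 of 10 tenocyte markers. The *Runx2 Tnn* group, left without a name with 6 of 11 chondrocyte and 5 of 10 tenocyte markers, lay to 97.9% in the tenocyte-like class.

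Asporin, which lacks glycosaminoglycan chains and binds collagen and TGF-β, was high in vessel-wall cells as well as in tendon and FAP-like cells. *Aspn* stood at 1176, 996, 1283 and 1214 CPM in tenocyte-like cells (1167 ± 123) and at 1066, 798, 1027 and 852 CPM in FAP-like cells (936 ± 131), which overlapped. Smooth muscle or pericyte-like cells held it at 646, 645, 686 and 639 CPM (654 ± 21.6), below both in each library and far above the 43.5 CPM of macrophage-like cells. Thinned to 2000 UMIs, 69.0% of smooth muscle or pericyte-like cells held an *Aspn* UMI (97.1% before), against 5.03% of macrophage-like cells (12.8%). In the same vessel-wall cells only 8.56% held a *Dcn* UMI (18.2%), close to the share in macrophage-like cells. Both shares include Scrublet-called cells. Without those cells mean *Dcn* was 82.8 CPM in the vessel-wall class and 28.4 CPM in macrophage-like cells. Chondrocyte-like cells had little *Aspn*, at a mean of 71.1 CPM.

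Lumican, a keratan sulfate carrier of class II, had the same order over these classes as decorin. *Lum* was 847, 703, 846 and 805 CPM in FAP-like cells (800 ± 67.6), 455, 512, 370 and 537 CPM in tenocyte-like cells and 278, 153, 261 and 191 CPM in chondrocyte-like cells, 3 ranges without overlap. Its highest finer group was again *Wnt2 Ly6a*, at 1416 ± 87.1 CPM, followed by *Sv2c Igfbp2* at 913 ± 47.1 CPM. In the *Chst5 Tnmd* group, where *Bgn*, *Fmod*, *Kera* and *Ogn* peaked, *Lum* was at 199 CPM.

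Fibromodulin had another order than lumican, which binds the same site on collagen I. *Fmod* was 710, 635, 632 and 660 CPM in chondrocyte-like cells (659 ± 36.1) and 453, 381, 439 and 337 CPM in tenocyte-like cells (403 ± 53.7), without overlap. FAP-like cells held 10.8, 23.7, 5.14 and 19.5 CPM. Of these *Fmod* UMIs 81.6% lay in FAP-like cells that the finer clustering put in the cycling *Matn3 Cnmd* group, which carries 11 of 11 chondrocyte markers, and without those cells, a choice made after seeing the data, the level was between 1.94 CPM (KO 1) and 3.8 CPM (KO 2). It was then lower than before in each library, and the *Wnt2 Ly6a* group, highest for *Dcn* and *Lum*, a mean of 2.32 CPM. *Fmod* peaked in the *Chst5 Tnmd* group at 1209, 1013, 1327 and 823 CPM (1093 ± 222), above the chondrocyte-like *Matn1 Cytl1* group at 677 ± 40.6 CPM. A *Fmod* UMI was present after thinning in 80.8% of *Chst5 Tnmd* cells (96.1% before), 65.7% of chondrocyte-like cells (93.4%) and 1.20% of macrophage-like cells (3.09%). The *Fmod* level over all kept cells was 86.2, 102, 39.6 and 97.0 CPM, lowest in KO 1, the library with the fewest cartilage and tendon cells.

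Keratocan was highest in tendon cells. *Kera* was 554, 394, 525 and 362 CPM in tenocyte-like cells (459 ± 94.7), against a mean of 31.3 CPM in FAP-like and 4.40 CPM in chondrocyte-like cells. Of the *Kera* UMIs in FAP-like cells 39.7% lay in the *Matn3 Cnmd* group. Within the tenocyte-like class the *Chst5 Tnmd* group held 1686, 1329, 1778 and 1171 CPM (1491 ± 288), and the *Scx Ptx4* group, also with 7 of 10 tenocyte markers, 285 ± 20.1 CPM. Both WT 1 and KO 1 were above WT 2 and KO 2 there. After thinning, 77.3% of *Chst5 Tnmd* cells held a *Kera* UMI (88.0% before), against 0.351% of macrophage-like cells (2.09%).

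*Prelp*, which links matrix to basement membranes, was highest in the *Anxa8 Col22a1* group, of which 92.7% lay in the tenocyte-like class, at 193 ± 39.5 CPM and the *Matn1 Cytl1* group at 166 ± 29.0 CPM, which overlapped. The first carried 7 of 9 markers of *Pi16 Ly6a* fibroblasts and 3 of 5 of joint lining. In chondrocyte-like cells *Prelp* stood at 197, 156, 189 and 136 CPM and in FAP-like cells at 39.9, 32.8, 22.9 and 25.1 CPM. Osteomodulin was scarce and was highest in the *Runx2 Tnn* group, which carried 6 of 11 chondrocyte and 5 of 10 tenocyte markers beside the bone regulator *Runx2*. *Omd* stood there at 76.7, 39.4, 26.7 and 59.8 CPM (50.7 ± 22.1). There 6.07% of thinned cells held an *Omd* UMI (15.7% before), against 0.456% of macrophage-like cells (1.96%).

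Osteoglycin, of class III, was high in tenocyte-like cells, at 1123, 990, 968 and 901 CPM (996 ± 92.8), and in FAP-like cells, at 748, 649, 683 and 625 CPM (676 ± 53.3), without overlap. *Ogn* peaked in the *Chst5 Tnmd* group at 1581 ± 247 CPM, above *Sv2c Igfbp2* at 1064 ± 91.1 CPM and *Runx2 Tnn* at 1017 ± 37.3 CPM, which overlapped. It was the leading member of the myogenic-like class as a whole. In the *Myf5 Msc* group, which carries 6 of 11 myogenic markers, *Ogn* stood at 169, 132, 155 and 127 CPM (146 ± 19.6), whereas *Dcn* was at 22.3 ± 1.75 CPM. After thinning, 24.3% of *Myf5 Msc* cells held an *Ogn* UMI (59.2% before) and 3.85% of macrophage-like cells did (11.1%). *Ogn* made up 56.4% of all member UMIs in that group. The antisense gene *Cenpp* was at 59.4 CPM there and at 358 CPM in the cycling myogenic *Hist1h2ae Myod1* group, where *Ogn* was at 34.8 CPM and *Bgn*, at 50.8 CPM, was above it in each library, and the strand setting of the counting is not given in the sources used here.

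Epiphycan was highest in cartilage cells. *Epyc* stood at 161, 51.1, 15.1 and 76.3 CPM in chondrocyte-like cells (75.8 ± 61.9), and its next highest class, tenocyte-like, was at a mean of 3.73 CPM. The spread between libraries was large, with WT 1 highest and KO 1, which had 96 chondrocyte-like cells, lowest. After thinning, 10.8%, 2.86%, 1.04% and 6.33% of chondrocyte-like cells held an *Epyc* UMI (a mean of 10.9% before thinning), against 0.0992% of macrophage-like cells.

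**Figure D1:**
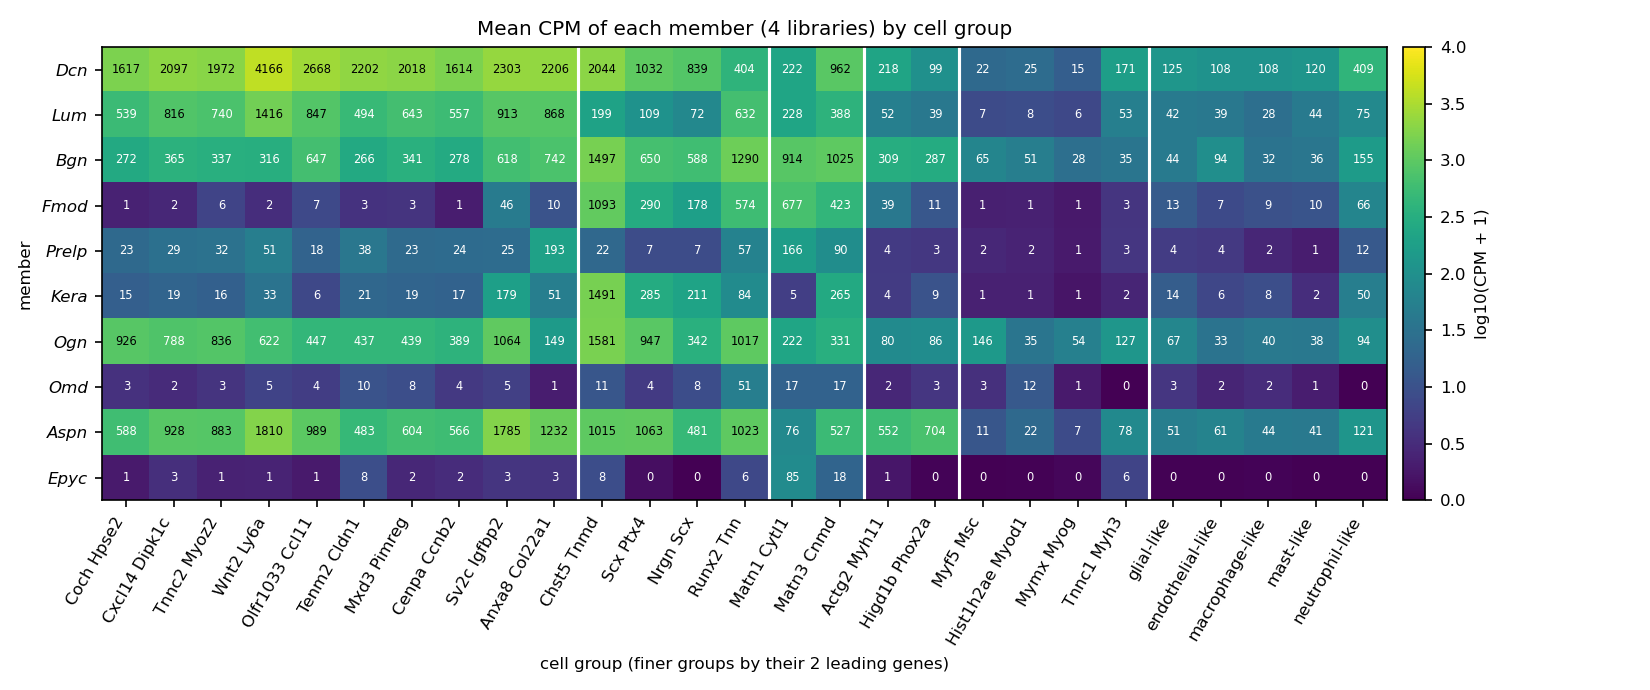
Mean level of each of the 10 members (rows) in 22 finer groups and 5 cell classes (columns), printed as CPM over 4 libraries and coloured by log10(CPM + 1). *Dcn* and *Lum* were highest in the *Wnt2 Ly6a* group (4166 and 1416 CPM), *Fmod*, *Kera*, *Bgn* and *Ogn* in the *Chst5 Tnmd* group, and *Epyc* in the *Matn1 Cytl1* group (84.5 CPM).

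Summed over the 10 members, tenocyte-like cells held 6552, 5863, 6026 and 5598 CPM (6010 ± 402) and FAP-like cells 5600, 4929, 5544 and 4860 CPM (5233 ± 393). The lowest tenocyte-like value was just below the highest FAP-like one, while within each library the tenocyte-like class was higher. Chondrocyte-like cells summed to 2541 ± 283 CPM, smooth muscle or pericyte-like cells to 1251 ± 123 CPM and myogenic-like cells to 193 ± 13.6 CPM. The finer groups at the top were *Chst5 Tnmd* at 8961 ± 1146 CPM and *Wnt2 Ly6a* at 8424 ± 513 CPM, which overlapped, then *Sv2c Igfbp2* at 6941 ± 466 CPM. Their make-up differed. In FAP-like cells *Dcn* gave 45.2% of member UMIs, *Aspn* 17.8% and *Lum* 15.3%, whereas in chondrocyte-like cells *Bgn* gave 36.7% and *Fmod* 26.1%. The *Chst5 Tnmd* group was spread over more members, with *Dcn* at 22.6%, *Ogn* at 17.6%, *Bgn* at 16.8%, *Kera* at 16.5% and *Fmod* at 12.1%. Cells of that group held a mean of 5.13 different members after thinning, and FAP-like cells 3.45. In the pericyte-like *Higd1b Phox2a* group *Aspn* alone gave 56.9%.

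**Figure D2:**
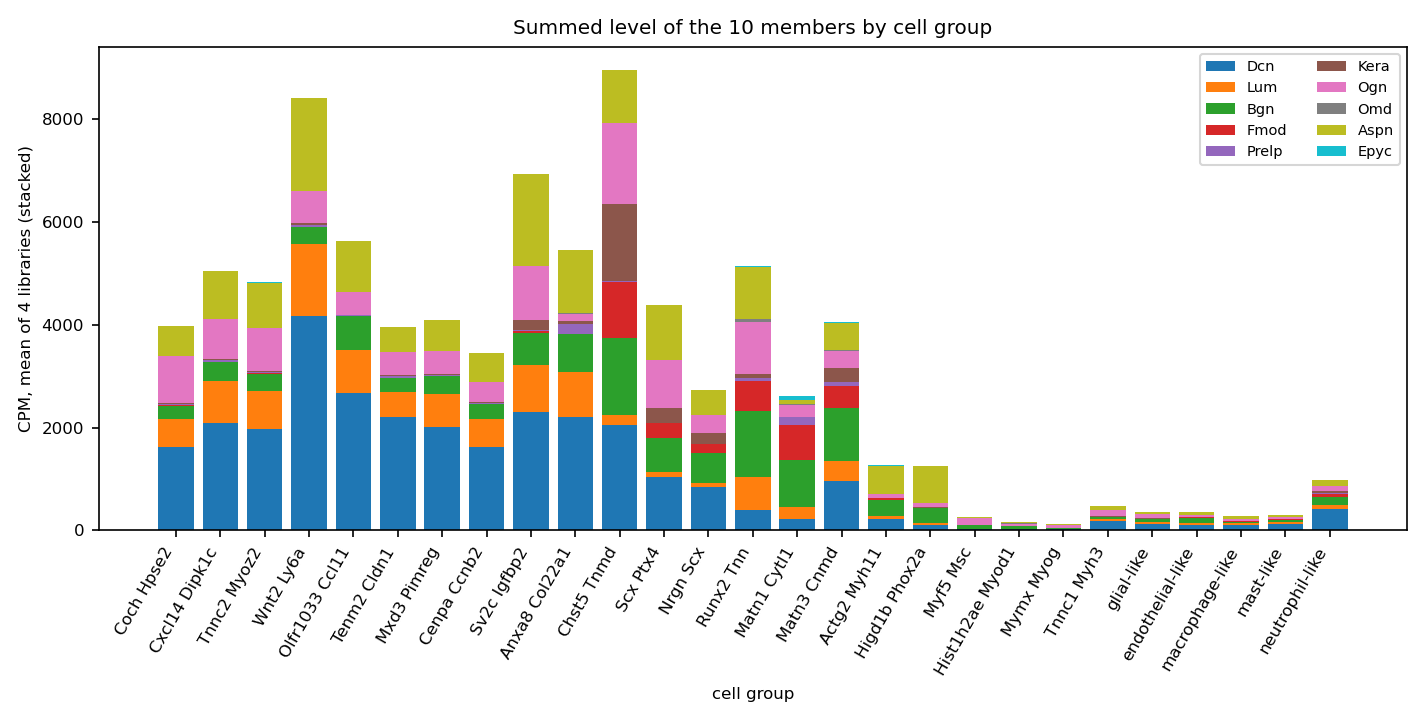
Summed level of the 10 members per cell class and finer group, in CPM on a linear axis that starts at 0, stacked by member (mean of 4 libraries). The *Chst5 Tnmd* group (8961 CPM) and the *Wnt2 Ly6a* group (8424 CPM) were the 2 highest, the first with a broad mix of members and the second mostly *Dcn*, *Aspn* and *Lum*.

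Across 27 classes and finer groups, which share the same 4 libraries, the log2 levels (CPM + 1) of *Dcn* and *Lum* had a Pearson correlation of 0.93, *Dcn* and *Aspn* 0.89 and *Fmod* and *Kera* 0.68, whereas *Dcn* and *Fmod* had 0.17 and *Lum* and *Fmod* 0.14. Neighbours on chromosome 10 thus ranged from nearly the same order of levels (*Dcn* and *Lum*) to peaks in different cells (*Kera* in tendon, *Epyc* in cartilage). Genes outside the family with the most similar pattern were *Pdgfra* (0.94), *Dkk2* (0.93) and *Col3a1* (0.93) for *Dcn*, and *Thbs3* (0.96), *Rspo3* (0.96) and *Pdgfra* (0.95) for *Lum*. For *Fmod* they were *Wif1* (0.93), *Cilp2* (0.91) and *Mkx* (0.88), and for *Kera* they were *Spon2* (0.89), *Mkx* (0.89) and *Thbs4* (0.86). *Mkx* encodes a transcription factor of tendon cells and *Pdgfra* the receptor that marks FAPs. Both genes, and also *Col3a1* and *Thbs4*, were among the markers used to name classes. For *Bgn* the nearest were *P3h3* (0.94), *Vasn* (0.93) and *Cacna1g* (0.92), for *Aspn* they were *Twist1* (0.95), *Nfatc4* (0.95) and *Prrx1* (0.95), and for *Ogn* they were *Mfap4* (0.93), *Cpxm1* (0.92) and *Scarf2* (0.92). *Prelp* had *Cthrc1* (0.93), *Adamtsl4* (0.92) and *Klf4* (0.91). The scarce members had looser matches, *Gm17092* (0.80), *Slc16a4* (0.80) and *Sertad3* (0.78) for *Omd* and *Efcab1* (0.84), *Pde4dip* (0.83) and *Pantr1* (0.83) for *Epyc*.

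The comparison of KO with WT asked whether loss of *SYISL* moved the members within a cell class. Within each class the counts of a library were added up, and edgeR's quasi-likelihood test was fitted over all genes, with Benjamini-Hochberg adjustment and a threshold of 0.05. In the 3 classes that make most of the family, no member passed. Of 10 members tested in FAP-like cells edgeR called 0, beside 0% of 18120 genes, and DESeq2 called 0 members, while 2 were lower at an unadjusted p under 0.05. The median log2 fold change of the members was -0.09 in FAP-like, -0.07 in tenocyte-like and -0.15 in chondrocyte-like cells, against 0.00 for all genes tested in each. In tenocyte-like cells edgeR and DESeq2 called 0 of 10 members, beside 0% of 15308 genes, with 1 at an unadjusted p under 0.05. In chondrocyte-like cells both called 0 of 10, beside 0% of 12125 genes, with 0 under 0.05 unadjusted. Over all genes of these classes DESeq2 called 6, 1 and 0, and at an unadjusted p under 0.05 edgeR had 258 genes higher and 274 lower in FAP-like, 117 and 132 in tenocyte-like and 163 and 161 in chondrocyte-like cells.

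For the abundant members of FAP-like cells the differences were small. For *Dcn* the KO minus WT log2 fold change was 0.03 (SE 0.10) and for *Lum* 0.13 (SE 0.10), and their WT and KO values given above overlapped. *Bgn* was lower in both KO libraries (351 and 357 CPM) than in both WT libraries (422 and 365 CPM), by -0.12 (SE 0.09), with an adjusted p of 0.993 by edgeR. FAP-like cells of the *Matn3 Cnmd* group held from 2.48% (KO 1) to 16.8% (WT 2) of these *Bgn* UMIs. Without them the order was lost, at 404 and 323 CPM in WT and 345 and 328 CPM in KO. With all cells of a class counted, both KO libraries were below both WT libraries for *Bgn* in 5 of 9 classes. These were FAP-like, tenocyte-like, chondrocyte-like, myogenic-like and smooth muscle or pericyte-like. The *Bgn* fold change was below 0 in 19 of 20 finer groups tested, 0 of them at an unadjusted p under 0.05 and 0 called by edgeR. *Prelp* was lower in both KO libraries (22.9 and 25.1 CPM) than in both WT libraries (39.9 and 32.8 CPM), by a log2 fold change of -0.56 (SE 0.12), which edgeR's quasi-likelihood test gave an adjusted p of 0.993. *Prelp* was also lower in both KO libraries of tenocyte-like cells, 30.2 and 37.2 against 46.8 and 45.7 CPM (-0.42, SE 0.12), with an adjusted p of 1.00 by edgeR. The same order was seen in finer groups, a pattern noticed after the values were seen. In the *Wnt2 Ly6a* group *Prelp* was 65.9 and 56.7 CPM in WT and 40.5 and 41.1 CPM in KO (-0.58, SE 0.12), and in the *Cxcl14 Dipk1c* group 42.9 and 32.0 against 20.9 and 19.1 CPM (-0.89, SE 0.16), both with an adjusted p of 1.00 by edgeR. Of 16 finer groups with a *Prelp* test, 14 had a lower KO level, 9 of them at an unadjusted p under 0.05, edgeR called 0, and the groups share the same 4 libraries. *Omd* was 5.60 and 5.66 CPM in WT and 4.50 and 4.40 CPM in KO FAP-like cells (-0.30, SE 0.12), again with an adjusted p of 0.993 by edgeR. In tenocyte-like cells *Dcn* was lower and *Aspn* higher in KO on average, by -0.25 (SE 0.11) and 0.23 (SE 0.11), both with an adjusted p of 1.00 by edgeR. The make-up of this class differed by library. Cells of the *Scx Ptx4* group were 258 of 1072 in WT 1, 238 of 1372 in WT 2, 272 of 748 in KO 1 and 265 of 1661 in KO 2. The part of make-up in these fold changes was not tested.

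For some members the libraries of 1 genotype differed more than the genotypes. *Kera* and *Fmod* in tenocyte-like cells were higher in replicate 1 than in replicate 2 of both genotypes, and their KO minus WT log2 fold changes were -0.07 (SE 0.23) and -0.08 (SE 0.16). *Epyc* in chondrocyte-like cells had a log2 fold change of -0.86 (SE 0.55), with an adjusted p of 1.00 by edgeR. That value was 0.13 without WT 1, -0.44 without KO 1 and -2.79 without KO 2, so WT 1 decided its sign and each of these libraries moved its size.

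**Figure D3:**
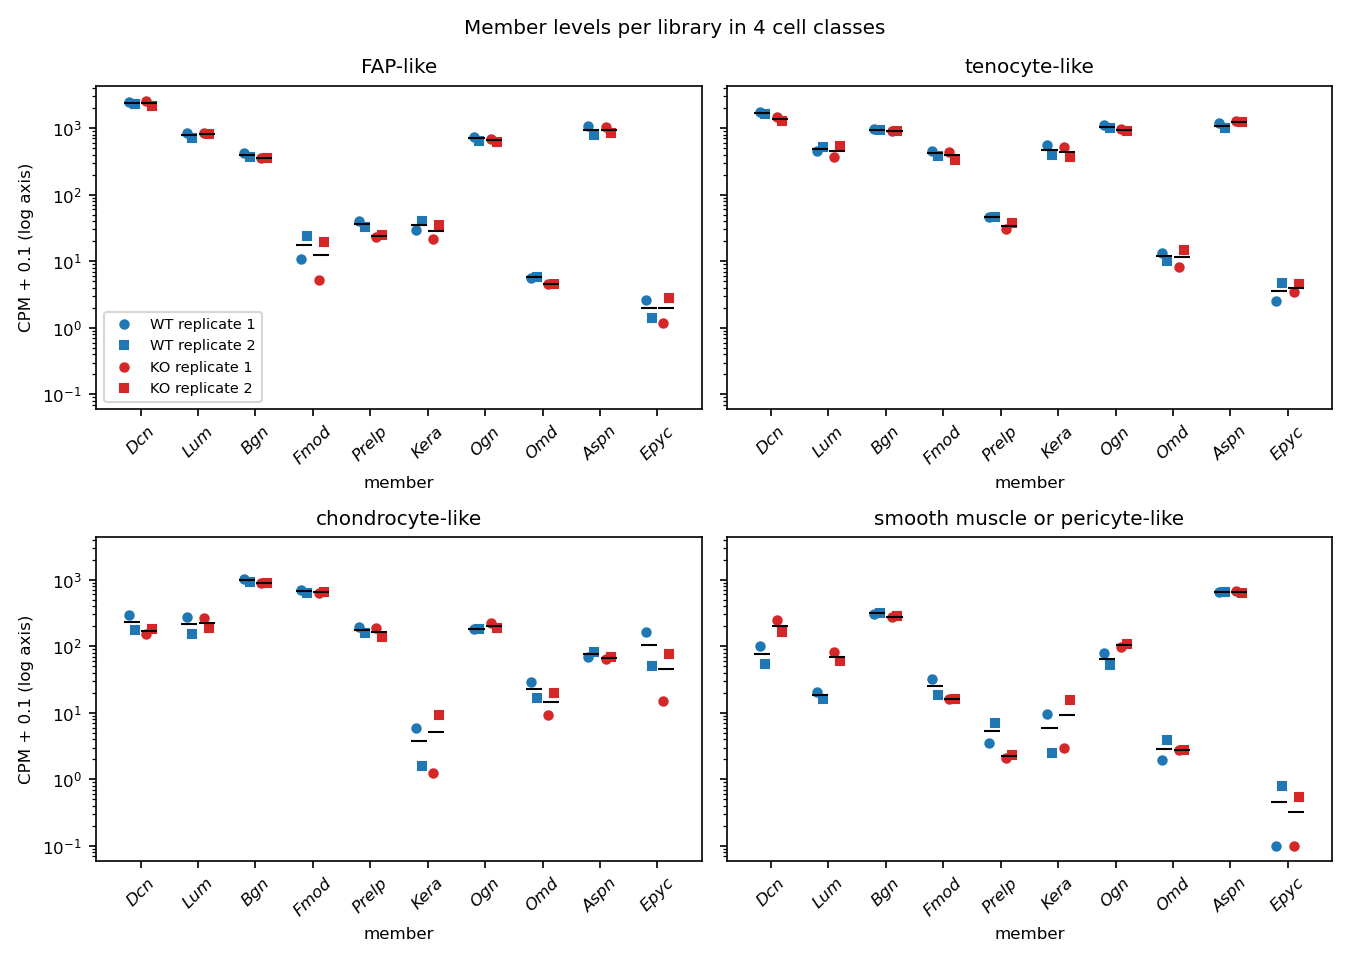
CPM of each member in FAP-like, tenocyte-like, chondrocyte-like and smooth muscle or pericyte-like cells, 1 point per library (WT and KO coloured) and a black line at each genotype mean, on a log axis of CPM + 0.1. Both KO points sit above both WT points for *Dcn* (164 and 244 against 53.4 and 101 CPM) and *Lum* in smooth muscle or pericyte-like cells, and below them for *Bgn* and *Prelp* in FAP-like cells. For *Bgn* this order was lost without the FAP-like cells of the *Matn3 Cnmd* group.

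Smooth muscle or pericyte-like cells, the contractile wall of vessels, were 1 of 2 classes in which members passed the test. *Lum* was 20.4 and 16.0 CPM in WT and 80.4 and 59.3 CPM in KO (18.2 ± 3.12 against 69.9 ± 14.9, SD, n = 2 each), and *Dcn* was 101 and 53.4 CPM in WT and 244 and 164 CPM in KO (77.2 ± 33.7 against 204 ± 56.7). Both KO libraries were above both WT libraries for each gene. *Lum* rose by a log2 fold change of 1.95 (SE 0.17, adjusted p = 6.48e-05 by edgeR) and *Dcn* by 1.40 (SE 0.21, adjusted p = 0.0119 by edgeR), 2 of 9 members tested in a class where 17 of 12610 genes, 0.135%, were called. DESeq2 called *Lum* and not *Dcn*. *Aspn* and *Bgn*, the members that this class holds in most cells, stood at 0.05 (SE 0.07) and -0.15 (SE 0.08). *Ogn* was 77.8 and 52.2 CPM in WT and 97.0 and 109 CPM in KO (0.67, SE 0.15, adjusted p = 0.129 by edgeR), and *Fmod* was 32.0 and 18.6 against 16.2 and 15.9 CPM (-0.66, SE 0.22, adjusted p = 0.677 by edgeR).

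The levels of *Dcn* and *Lum* that rose were low beside the 2364 and 800 CPM of FAP-like cells. Macrophage-like cells, taken as background, held 108 ± 13.1 CPM of *Dcn*, and without cells that Scrublet, which scores droplets that look like 2 cells, called as such they held 28.4 ± 5.42 CPM. On the same basis the vessel-wall class held 59.3 and 45.9 CPM in WT and 128 and 97.9 CPM in KO, so all 4 libraries were above the background without called cells, while with them both WT libraries were below it. Few cells of the class carried *Dcn*. Cells with 10 or more *Dcn* UMIs numbered 17 and 7 in WT and 39 and 27 in KO, 3.74% and 1.89% against 7.82% and 6.37% of the class. They held 74.3% and 57.7% of the class's *Dcn* UMIs in WT and 88.6% and 85.2% in KO. Of them, Scrublet called 8 and 2 in WT and 21 and 10 in KO, and in the whole class it called 2.86% and 1.62% of WT and 6.81% and 4.01% of KO cells. FAP markers moved the same way. Of 10, 9 were higher in both KO libraries than in both WT libraries (*Tcf4* was not) and 0 were at 0, and their summed level was 3096 and 2693 CPM in WT and 4278 and 3580 CPM in KO. Without the 3 collagens of the list the sum was 573 and 556 CPM in WT and 633 and 551 CPM in KO, which overlapped. Most of that sum was *Tcf4*, at 511 and 499 CPM in WT and 489 and 468 CPM in KO. Each of the other markers left in it was higher in both KO libraries. *Pdgfra* itself was 6.94 and 4.94 CPM in WT and 22.1 and 14.5 CPM in KO. Their part in the difference was not tested. Without Scrublet-called cells the log2 fold change was 1.75 for *Lum* (adjusted p = 0.000401 by edgeR) and 1.12 for *Dcn* (adjusted p = 0.00289 by edgeR), both still past the threshold. With looser limits on cells *Dcn* fell short at 0.84 (adjusted p = 0.514 by edgeR). Leaving out cells that held a *Pdgfra* UMI, a choice made after seeing the data, took 18 and 11 WT and 43 and 28 KO cells away. *Lum* then stood at 7.58 and 9.81 CPM in WT and 25.3 and 26.3 CPM in KO (1.59, SE 0.20, adjusted p = 0.0114 by edgeR), and *Dcn* at 52.9 and 39.3 against 83.4 and 75.8 CPM (0.80, SE 0.14, adjusted p = 0.147 by edgeR).

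Both finer groups of this class had the same order. In the smooth muscle *Actg2 Myh11* group *Dcn* rose by 1.26 (SE 0.16, adjusted p = 0.00542 by edgeR) and *Lum* by 1.79 (SE 0.24, adjusted p = 0.00713 by edgeR), among 8 of 10282 genes called, 0.0778%. In the pericyte-like *Higd1b Phox2a* group *Lum* rose by 2.02 (SE 0.21, adjusted p = 0.00599 by edgeR), 1 of 3 genes called of 11563, 0.0259%, beside *Btg2* and *Ptn*, and *Dcn* was at 1.51 (adjusted p = 0.396 by edgeR). Without Scrublet-called cells *Lum* in the *Higd1b Phox2a* group was at 1.46 with an adjusted p of 0.0700 by edgeR. Other genes called in the whole class included *Pdgfra* at 1.63, *Smoc2* at 1.37, *Cthrc1* at 1.30 and *Clec3b* at 1.21, all fibroblast genes, and *Col8a1* at -1.12 and *Cyp26b1* at -1.18, named here after their values were seen.

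**Figure D4:**
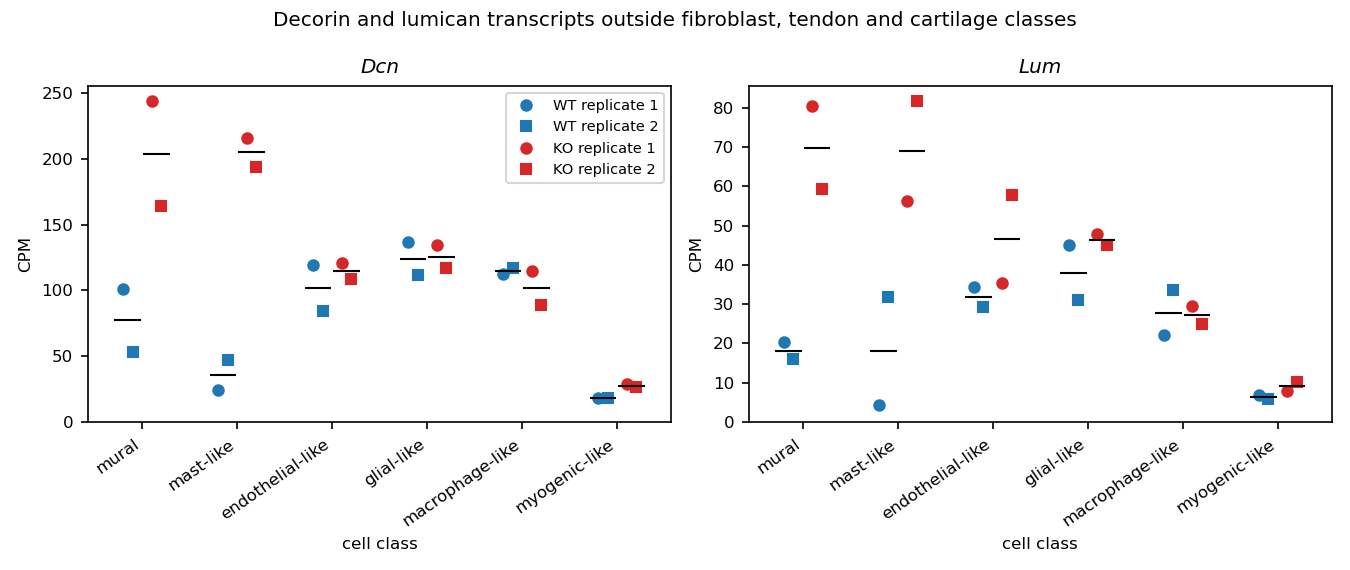
CPM of *Dcn* and *Lum* per library in the classes that make little of them (mural stands for smooth muscle or pericyte-like cells), points for WT and KO libraries and lines at the genotype means. KO points are above WT points for both genes in mural, mast-like and myogenic-like cells (204 against 77.2 CPM in mural and 205 against 35.9 CPM in mast-like cells for *Dcn* on average) and for *Lum* also in endothelial-like and glial-like cells, while in macrophage-like cells the genotypes overlap for *Dcn*.

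In mast-like cells, an immune class of 59 to 85 cells per library, *Dcn* was 24.6 and 47.1 CPM in WT and 216 and 194 CPM in KO (35.9 ± 15.9 against 205 ± 15.7). *Dcn* rose by 2.50 (SE 0.26, adjusted p = 0.0360 by edgeR), 1 of 6 members tested beside 7 of 7129 genes called, 0.0982%. Without KO 1 the adjusted p was 0.0910 and without KO 2 it was 0.196, both by edgeR, so each KO library was needed for the call. *Lum* (4.35 and 31.9 against 56.2 and 81.7 CPM) and *Aspn* (means of 15.4 against 66.2 CPM) did not pass, with adjusted p of 0.465 and 0.340 by edgeR. Cells with 10 or more *Dcn* UMIs were 1 and 2 in WT and 6 and 6 in KO. Of 10 FAP markers 8 were higher in both KO libraries (*Ly6a* and *Pi16* were not), with a sum of 859 and 585 CPM in WT and 2109 and 1987 CPM in KO (69.6 and 98.4 against 245 and 191 CPM without collagens), and *Pi16* and *Osr1* had 0 UMIs in both WT libraries. Scrublet called 5.08% and 1.67% of WT and 4.71% and 10.98% of KO cells, and the part of these values in the difference was not tested. The other genes called in this class were *Vcan* at 3.11, *Fn1* at 2.96, *Col6a3* at 2.28, *Meg3* at 2.10, *Fstl1* at 2.02 and *Col1a1* at 1.39, most of them matrix genes, named after their values were seen. Without cells that held a *Pdgfra* UMI *Dcn* stood at 6.20 and 4.51 against 31.6 and 84.4 CPM (3.41, adjusted p = 0.432 by edgeR). Without Scrublet-called cells *Dcn* was at 1.77 with an adjusted p of 0.366 by edgeR.

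The remaining classes gave no call. Endothelial-like cells had 0 of 8 members called by edgeR or DESeq2, beside 2 of 11775 genes (*Myog* and *Ccl21a*), 0.0170%, and 3 members were above 0 with an unadjusted p under 0.05. Among them *Lum* was 34.3 and 29.4 CPM in WT and 35.3 and 57.8 CPM in KO (0.54, SE 0.22, adjusted p = 0.999 by edgeR). *Ogn* was 30.5 and 16.8 CPM in WT and 40.6 and 42.9 CPM in KO (0.82, SE 0.22, adjusted p = 0.891 by edgeR), and 7 of 10 FAP markers were higher in both KO libraries there. With a library left out, edgeR called *Lum*, *Ogn*, *Fmod* and *Kera* among 145 genes without KO 1, *Ogn* and *Aspn* among 71 without KO 2, *Ogn* among 35 without WT 1 and 0 members among 5 without WT 2. Without Scrublet-called cells edgeR called 0 of 5 members there, with 250 genes above and 165 below 0 at an unadjusted p under 0.05. Myogenic-like cells had 0 of 9 members called by either tool, beside 0% of 14706 genes, and 4 at an unadjusted p under 0.05. *Dcn* there had a mean of 18.3 CPM in WT and 27.6 CPM in KO (0.64, SE 0.10, adjusted p = 0.966 by edgeR), a level below that of macrophage-like cells, and *Ogn*, the leading member, was 99.3 and 78.5 against 89.2 and 78.0 CPM (-0.05). DESeq2 called 4 genes in endothelial-like and 0 in myogenic-like cells. For the main fits of these classes the share of all genes at an unadjusted p under 0.05 is not given here. The member counts at that level are therefore not read as a result. Glial-like cells (9 members tested, 0% of 12842 genes called) and macrophage-like cells (7 members, 0% of 11529 genes) had 0 members called by edgeR, 0 by DESeq2 and 0 at an unadjusted p under 0.05. Over all kept cells edgeR and DESeq2 called 0 of 10 members, beside 0% of 20419 genes by edgeR, and *Prelp* was lowest at -0.55 (adjusted p = 0.946 by edgeR). KO 1, with the fewest tendon and cartilage cells, enters that sum, and fewer cells of a class and less RNA per cell cannot be told apart in it.

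Among finer groups of fibroblasts 1 member passed. In the *Cenpa Ccnb2* group, 398 FAP-like cells with 3 of 8 cycling markers, *Kera* was 0 and 7.11 CPM in WT and 25.9 and 36.5 CPM in KO, from 0, 7, 25 and 43 UMIs. It rose by 2.91 (SE 0.52, adjusted p = 0.0119 by edgeR), the 1 gene called of 8893, 0.0112%. The value of 0 in WT 1 allows up to 3 UMIs, and the call was lost without WT 1 (2.17), without KO 2 (2.63) and without WT 2, where the WT library left was at 0 and gives no fold. In the *Tenm2 Cldn1* group 6 of 10352 genes, 0.058%, were called and no member was among them. In the other 16 finer groups tested edgeR called 0 genes. At an unadjusted p under 0.05 they had from 248 of 10919 genes (*Runx2 Tnn*) to 733 of 13002 genes (*Olfr1033 Ccl11*). Of 144 member tests 27 were under 0.05 unadjusted, and the groups share the same 4 libraries. DESeq2 was not run on finer groups.

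**Figure D5:**
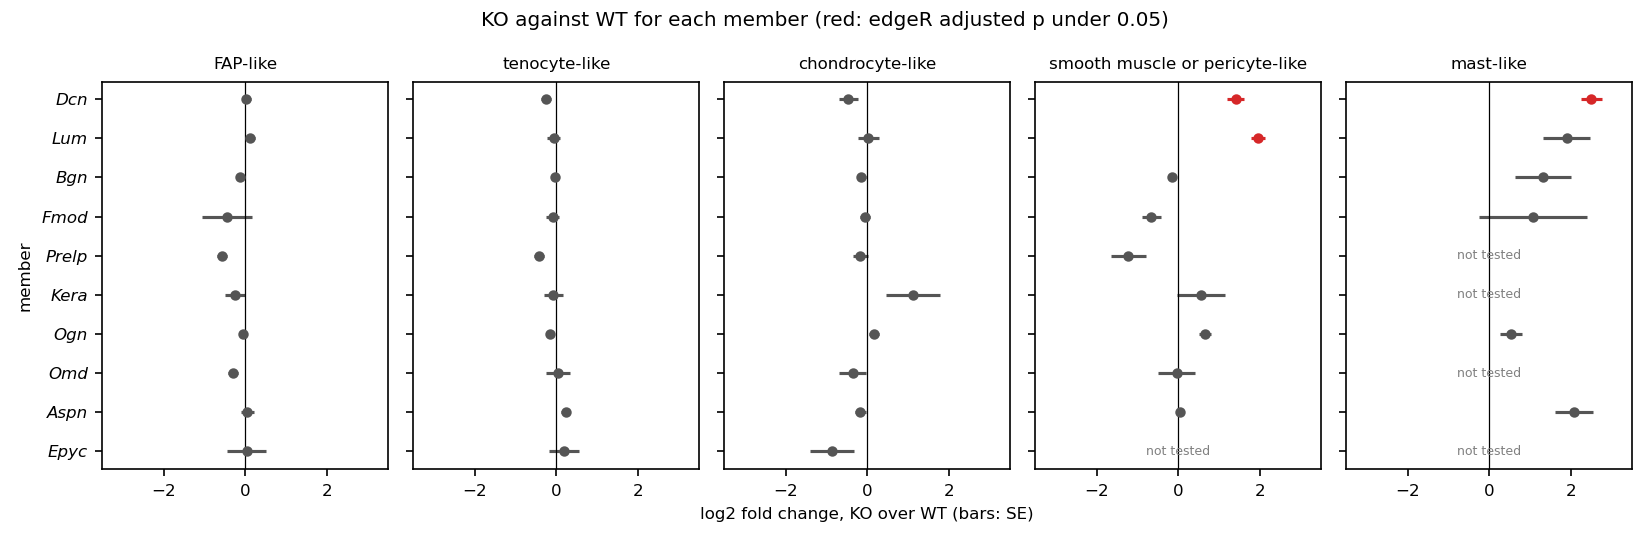
KO minus WT log2 fold change of each member in 5 classes with its standard error (edgeR), red where the adjusted p was under 0.05, on a linear axis with a line at 0. *Lum* (1.95) and *Dcn* (1.40) in smooth muscle or pericyte-like cells and *Dcn* (2.50) in mast-like cells are the 3 red points, and in FAP-like and tenocyte-like cells *Prelp* (-0.56 and -0.42) lies below 0 by more than its standard error without passing the test.

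Genes that act with the family were followed in 7 lists, which covered other small leucine-rich repeat proteins, other proteoglycans, the collagens bound, collagen processing enzymes, the synthesis of chondroitin or dermatan sulfate and of keratan sulfate chains, and growth-factor partners. In FAP-like cells edgeR and DESeq2 called 0 of 22 genes of chondroitin and dermatan sulfate synthesis, 0 of 23 of collagen processing and crosslinking, 0 of 14 collagens, 0 of 22 partners, 0 of 11 of keratan sulfate synthesis, 0 of 8 other leucine-rich repeat genes and 0 of 17 other proteoglycans. At an unadjusted p under 0.05 the first list had 1 gene, *Csgalnact1*, and the partners 1, *Bmp2*, which was above 0, and the other lists had 0. The list medians there ran from -0.07 to 0.00 on the log2 scale, against 0.00 for all genes tested. The genes with the smallest unadjusted p of their own list included *Csgalnact1*, which starts chondroitin chains, at -0.34 (SE 0.09), *P4ha2*, a hydroxylase of collagen chains, at 0.17 (SE 0.08), *Chst5*, a sulfotransferase of keratan sulfate, at -0.82 (SE 0.35), and *Chad*, a leucine-rich repeat protein of cartilage, at -0.95 (SE 0.74), each with an adjusted p of 0.993 by edgeR. In mast-like cells *Col1a1* rose by 1.39 (adjusted p = 0.0472 by edgeR) and *Col6a3* by 2.28 (adjusted p = 0.0482 by edgeR), 2 of 13 collagens tested, with a list median of 1.69 against -0.01 for all genes. *Fn1* (2.96, adjusted p = 0.0360 by edgeR) among 10 partners and *Vcan* (3.11, adjusted p = 0.0360 by edgeR) among 8 proteoglycans also rose there, beside the FAP-marker values of that class given above, and *Col1a1* is itself among those markers. In the other 7 classes edgeR called 0 of 727 tests of list genes, of which 41 were above and 20 below 0 with an unadjusted p under 0.05, and DESeq2 called 2 collagen genes, *Col3a1* and *Col1a2*, in smooth muscle or pericyte-like cells. The unadjusted counts are not set against the share of all genes in these classes and are not read as a result.

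Levels of 5 list genes, chosen for print after their values were seen, are given as examples. *Chst5* was 155 ± 19.6 CPM in the *Chst5 Tnmd* group, for which it is a naming gene and where the keratan sulfate carriers *Fmod* and *Kera* peaked, 48.0 CPM in the whole tenocyte-like class and 2.70 CPM in FAP-like cells. *Col1a1*, the main chain of tendon fibrils, was 27940.5 ± 1987 CPM in that group and 7455 CPM in FAP-like cells, while *Col3a1* reached 15854 ± 1624 CPM in the *Wnt2 Ly6a* group, where *Dcn* and *Lum* were highest. In chondrocyte-like cells *Acan*, the large proteoglycan of cartilage, was 1210 ± 141 CPM, and *Csgalnact1* was 244 CPM there against 33.4 CPM in FAP-like cells. *Vcan*, the large proteoglycan of loose connective tissue, was 1250 ± 49.6 CPM in FAP-like cells.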

How the data were processed

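Leg muscles of E18.5 fetuses were measured by droplet single-cell RNA sequencing in 2 WT and 2 KO libraries. Per the labels, the authors aligned reads to mm10 and made the deposited filtered UMI count matrices (unit: counts, not normalized) with Cell Ranger 7.2.0. Aligned introns, strand setting and pooling of fetuses are not given in the sources used here, and no feature is named for *SYISL*, so the knockout was not checked in the counts.

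From these counts, cells were kept by the study's stated limits on genes (1000 to 6000), UMIs (1000 to 25000) and mitochondrial share (below 8%). Counts were scaled to 10000 per cell, and 3000 variable genes without the members, 30 components and 20 neighbours gave Leiden clusters (scanpy 1.11.5, leidenalg 0.10.2) at resolution 0.3, and 1 for finer groups. A cluster could take the name of a marker list when at least 3 markers and more than 50% of the list stood at least 2-fold above the other cells. The *Runx2 Tnn* group stayed without a name with 6 of 11 chondrocyte and 5 of 10 tenocyte markers. Clusters left over were called FAP-like when at least 3 FAP markers reached 25% of their highest cluster level and no other tissue's list had 3 markers, which named most FAP-like cells. Both rules were set after the data were seen. Scrublet calls were recorded and kept. Levels are CPM within a class, and shares of cells used cells thinned to 2000 UMIs. KO and WT were compared on counts summed per library in classes of at least 50 cells per library, with the quasi-likelihood test of edgeR 4.0.16 (TMM factors, filterByExpr, genotype as the only term, R 4.3.3) and Benjamini-Hochberg adjustment over all genes tested. A fold change is KO over WT. The test was run on counts simulated for FAP-like, smooth muscle or pericyte-like and mast-like cells, with each library drawn independently. Such counts hold no doublets and no shifts in class make-up, so they cannot show how the test behaves with those. Likeness of genes was the Pearson correlation of log2(CPM + 1) over classes and finer groups among genes at 10 CPM or more in at least 1 of them, 3 genes named per member. From each partner list, up to 4 genes past the threshold, or else the 2 with the smallest unadjusted p in FAP-like cells, were named.

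Alternatives were DESeq2 1.42.0, relative log expression factors, no filter on low counts, looser cell limits, no Scrublet-called cells, the replicate number as a block, each library left out, other clusterings and other thinning. Depth was 109653824 to 126257094 UMIs a library, intervals were not used, and the precision of scarce members is limited by counts (2344 deposited UMIs for *Epyc*). Members, lists and tests were chosen with earlier results of these data known, which already showed more *Dcn* and *Lum* in KO smooth muscle or pericyte-like cells, so that comparison is no independent support.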

Additional observations from a re-analysis of the deposited data

Results flagged for a closer look

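For 3 members both KO libraries stood above both WT libraries in some classes and below both in another, and the difference between the classes was not tested. These classes numbered 3 above and 1 below for *Dcn*, and 4 above and 1 below for *Aspn* and for *Ogn*. Of the classes above, the one with the largest fold change is given, so each difference is the largest of its member. The log2 fold change of *Dcn* was 2.50 in mast-like and -0.25 in tenocyte-like cells, a difference of 2.75. That of *Aspn* was 2.08 in mast-like and -0.17 in chondrocyte-like cells, a difference of 2.25. That of *Ogn* was 0.82 in endothelial-like and -0.15 in tenocyte-like cells, a difference of 0.97. Of these 6 fold changes, that of *Dcn* in mast-like cells passed the test of edgeR, as given with its FAP-marker values in the report.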

How the results depend on the processing

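The replicate number was tested as a block because WT and KO share the numbers 1 and 2. The sources used here do not tie a number to a shared dam, batch or day, so the numbers were not taken to pair the libraries. Deviations of same-numbered libraries correlated between 0.0207 (chondrocyte-like) and 0.289 (tenocyte-like) over classes, above 0 in each. With the replicate block 5 members were called in place of 3, and 263 genes of all in place of 26. *Fmod* (-0.64) and *Ogn* (0.68) in smooth muscle or pericyte-like and *Dcn* (0.64) in myogenic-like cells were gained, and *Dcn* in mast-like cells was lost (adjusted p = 0.0711 by edgeR). Without each library in turn (the lone library of an arm is then assumed to vary like the other group) the members called ran from 5 to 8 and all genes from 201 to 417. Members called were 1 with looser cell limits and 6 with no filter on low counts. All genes called were 49 by DESeq2, 6 with looser cell limits, 12 without Scrublet-called cells and 508 with no filter. *Lum* in smooth muscle or pericyte-like cells passed under every alternative run, and *Dcn* there under all but DESeq2, looser cell limits and the removal of cells with a *Pdgfra* UMI. *Dcn* in mast-like cells was also lost with no filter and with looser cell limits. The cause of these changes was not tested.

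Left-out libraries turned the sign of 8 log2 fold changes that had not passed the test, whose lowest and highest values were -0.11 and 0.16 for *Dcn* and -0.0087 and 0.28 for *Lum* in FAP-like cells, -0.29 and 0.11 for *Fmod* and -0.38 and 0.23 for *Kera* in tenocyte-like cells, -2.79 and 0.13 for *Epyc* and -0.17 and 0.051 for *Fmod* in chondrocyte-like cells, -0.21 and 0.14 for *Ogn* in myogenic-like cells, and -1.21 and 0.10 for *Fmod* over all kept cells. The summed level moved by more than 1 SD in 5 classes. It was 3365 CPM with members among the variable genes, 3242 at resolution 1 and 3284 with looser cell limits in chondrocyte-like cells, 214 without Scrublet-called cells and 258 with the lowest class of each library subtracted in endothelial-like cells, and 153, 450 and 269 in glial-like and 80.1, 380.1 and 177 in macrophage-like cells (without Scrublet-called cells, with looser limits, with the lowest class subtracted). In myogenic-like cells it was 381 after centring within libraries and 97.7 with the lowest class subtracted. Shares of cells with a UMI follow the depth kept. Thinned to 1000 UMIs and unthinned they were 80.8% and 98.3% for *Dcn* and 47.2% and 86.6% for *Lum* in FAP-like cells, 57.1% and 98.1% for *Bgn*, 47.4% and 93.4% for *Fmod*, 16.8% and 69.1% for *Prelp* and 1.94% and 8.92% for *Omd* in chondrocyte-like cells, and 23.7% and 47.4% for *Kera*, 52.9% and 89.4% for *Ogn* and 53.6% and 86.4% for *Aspn* in tenocyte-like cells, and 10.9% unthinned for *Epyc* in chondrocyte-like cells.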
